A study of Mus musculus with 8 samples.

Results

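The genes described here are 9 enzymes that build sphingolipid-based glycolipids: Ugcg, St3gal5, B4galnt1, St8sia1, St8sia5, B3gnt5, A4galt, Ugt8a and Gal3st1. They were chosen by gene symbol from tables of 24346 symbols, and all 9 were found. The list was drawn up with values and results from these libraries known, so genotype differences are given as description, beside the same quantities over all genes, and the p-values printed with them support nothing about the list. RNA from colon epithelial cells of untreated C57BL/6J mice was sequenced in 8 libraries of 4 genotypes, each with 1 male and 1 female library: wild-type, St6galnac6-/-, B3galt5D116A and B3gnt7-/-. St6galnac6 encodes a sialyltransferase, B3galt5 a galactosyltransferase that carries a substitution in the B3galt5D116A mice, and B3gnt7 an N-acetylglucosaminyltransferase. All groups share the C57BL/6J background, and the labels give neither an age nor the number of animals behind each library.

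Glycolipids of this class start from ceramide. Glucosylceramide, made by Ugcg, is extended to lactosylceramide, from which the ganglioside, lacto and globo series branch, while galactosylceramide and its sulfated form, sulfatide, come from a separate first step. In the gut these lipids sit mostly in the outer leaflet of the plasma membrane, are abundant in the apical membrane of epithelial cells, and serve as binding sites for bacterial toxins and microbes.

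Values are FPKM, fragments scaled by transcript length and by a measure of library size that the sources do not define, so levels can be set beside each other between genes. Differences are of log2(FPKM + 1), so the changes of low genes come out too small. Means carry the SD of the 2 libraries of a genotype, male and female (n = 2), and p-values reflect no more than the scatter of these 8 libraries, part of which may be technical. The FPKM sums ran from 518482 to 639537 per library, and 11392 to 11663 genes per library reached 1 FPKM. Read counts are not in the tables, so no counting interval is given. The steps between low values put the depth of the wild-type female library at 1.05 relative to the wild-type male library. In the 6 mutant libraries it was 1.18 to 1.45, so both wild-type libraries were the shallowest. They also had the most genes at 0, 9175 and 8901 against 8471 to 8823 in the mutants. The part of depth in the differences from wild-type was not tested. Epithelial markers were high in all 8 libraries, with Epcam at 864 to 953 FPKM and Cdx2 at 81.3 to 107 FPKM, but not all were even. The 7 markers summed to 10137 and 11530 FPKM in wild-type and 8609 and 9073 FPKM in St6galnac6-/-. In the other mutants the sums were 8719 to 10648 FPKM. Krt18, 1 of the 7, was higher in both wild-type libraries (667 and 526 FPKM) than in the mutants (387 to 520 FPKM). St6galnac6 was at 218 and 232 FPKM in the St6galnac6-/- libraries against 343 to 495 FPKM in the other 6. B3gnt7 was at 68.8 and 142 FPKM in B3gnt7-/- against 154 to 266 FPKM, so both targeted transcripts were lowest in their own mutant but still present. A substitution need not alter the level of B3galt5, whose transcript therefore checks no label. Fibroblast and muscle markers summed to 6.56 FPKM in the B3gnt7-/- female library and to 0.568 to 1.14 FPKM in the others. Its sums for tuft cells (6.58 FPKM), T and intraepithelial lymphocytes (12.7 FPKM) and myeloid cells (8.47 FPKM) were also the highest, but not that for B and plasma cells. The part of such cells in the values of that library was not tested. The B3galt5D116A female and B3gnt7-/- male libraries, of different genotype and sex, often stood together at one end: they were the 2 highest of 8 for 8.73% of the 11537 genes tested, St3gal5, B4galnt1 and Ugt8a among them, and the 2 lowest for 10%, A4galt among them.

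The 9 genes spanned a wide range of levels. B4galnt1, which adds N-acetylgalactosamine to build GM2 and related gangliosides and also acts on lactosylceramide itself, had the highest mean, 81.1 FPKM over the 8 libraries, above 89.8% of the 11537 tested genes. Ugcg followed at 40.4 FPKM, then Gal3st1 at 29.4 FPKM and B3gnt5 at 17.3 FPKM. A4galt had a mean of 5.27 FPKM, St3gal5 of 4.21 FPKM, Ugt8a of 1.71 FPKM and St8sia5 of 1.37 FPKM, and St8sia1 stood last at 0.0426 FPKM. B4galnt1 exceeded Ugcg in 8 of 8 libraries with no overlap of their ranges, and B3gnt5 exceeded A4galt in the same way. The ranges of Ugcg and Gal3st1 overlapped, as did those of Gal3st1 and B3gnt5, of A4galt and St3gal5, of St3gal5 and Ugt8a, of Ugt8a and St8sia5, and of St8sia5 and St8sia1. Within each branch the enzymes were unequal: B4galnt1 was 8.24 to 64.1 times the level of St3gal5, which makes the usual ganglioside acceptor, and Gal3st1 was 6.80 to 35.8 times the level of Ugt8a, which makes its galactosylceramide substrate.

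**Figure D1:**
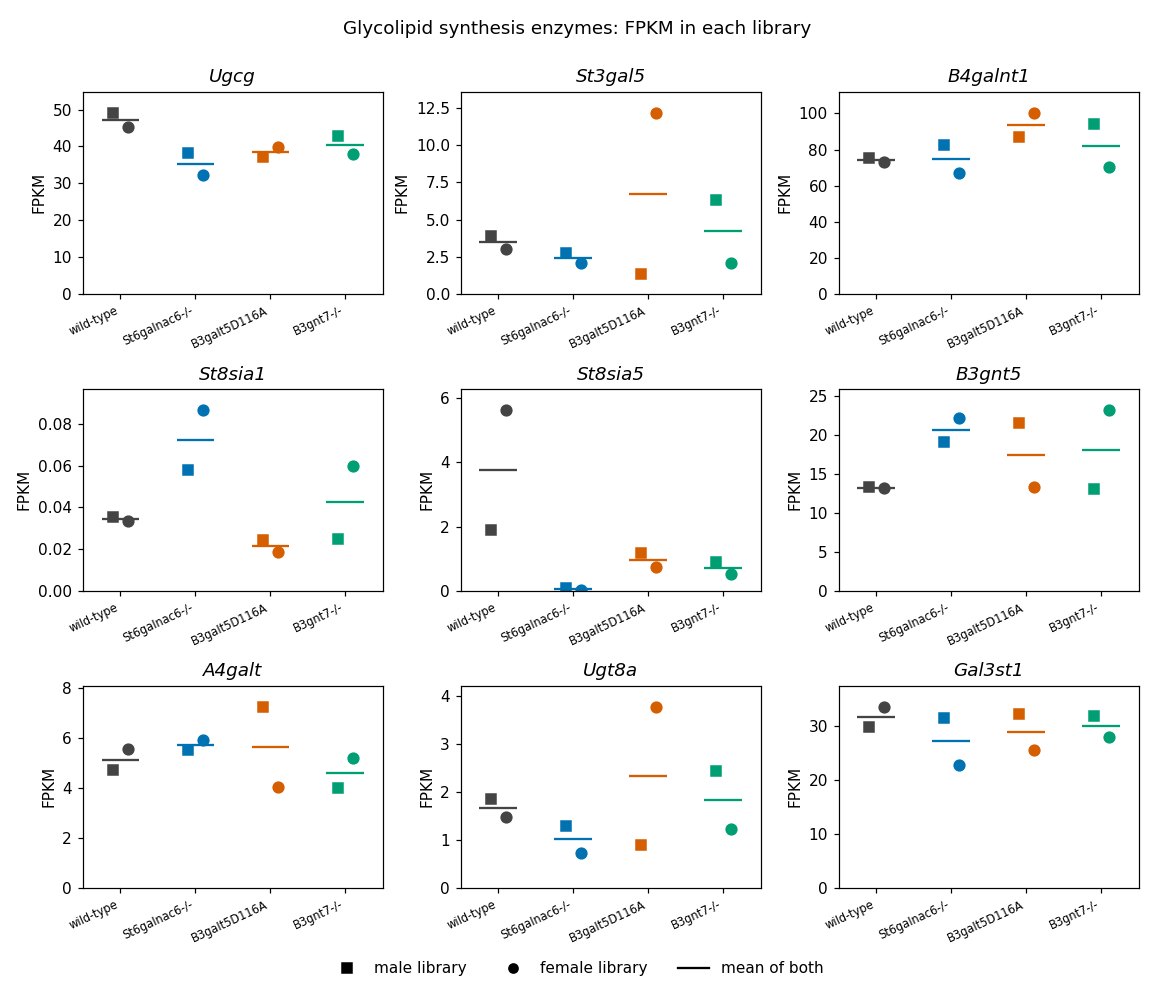
FPKM of the 9 glycolipid synthesis enzymes (y axes, each from 0 and on its own scale) in the male (square) and female (circle) library of each genotype (x axes), with a line at the mean of both. St8sia5 and Ugcg are highest in both wild-type libraries, and St3gal5 and Ugt8a are highest in the B3galt5D116A female library, at 12.1 and 3.77 FPKM.

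None of the 8 genes that passed the filter of a mean of at least 1 FPKM passed the limma test at an adjusted p of 0.05 in any comparison with wild-type. In St6galnac6-/-, 0 of 8 passed, where 0.0867% of all tested genes did, with Ugcg and St8sia5 at an unadjusted p under 0.05 (9.04% of all genes). In B3galt5D116A, 0 of 8 passed (0.078% of all genes) and St8sia5 alone was under the unadjusted threshold (11.7% of all genes). In B3gnt7-/-, 0 of 8 passed (0.052% of all genes), again with St8sia5 alone under the unadjusted threshold (7.17% of all genes). A single limma F-test for any difference among the 4 genotypes gave 0 of 8 (0.0867% of all genes), with St8sia5 under the unadjusted threshold (6.68% of all genes). The median log2 difference of the 8 genes was -0.31 in St6galnac6-/-, 0.13 in B3galt5D116A and -0.01 in B3gnt7-/-, where the median of all tested genes was 0.00, 0.00 and -0.01. The 3 comparisons share the wild-type libraries. St8sia1 did not pass the filter, and St8sia5 passed it only through the wild-type libraries, since its mean was under 1 FPKM in each mutant.

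**Figure D2:**
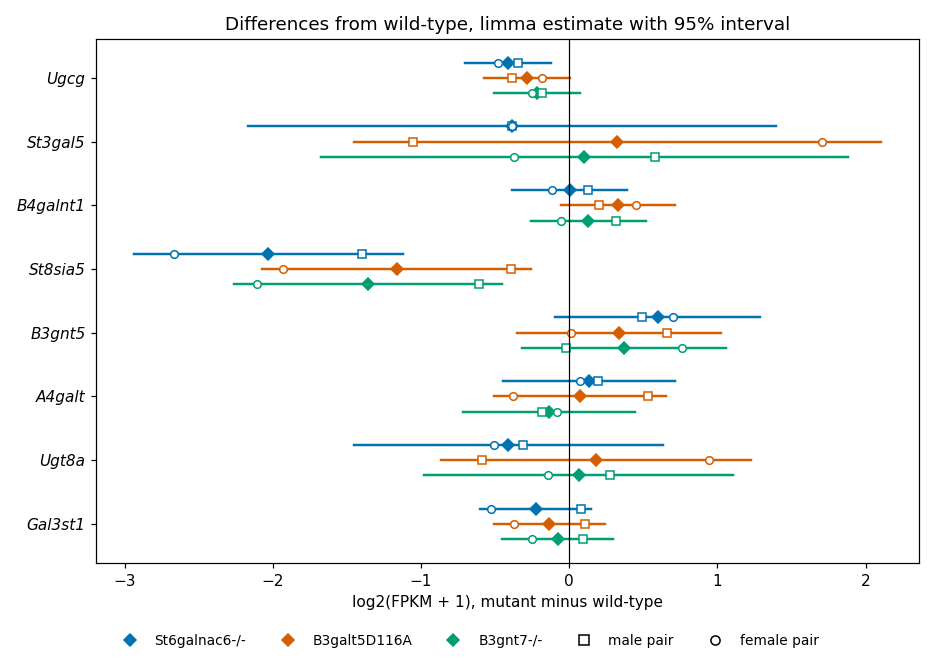
Difference of log2(FPKM + 1) from wild-type (x axis) for the 8 tested genes (y axis) in each mutant, as the limma estimate (diamond) with its 95% interval (line); open squares and circles are the male and female pair. St8sia5 lies below 0 in every mutant and both sexes, and the 2 sexes of B3galt5D116A fall on opposite sides of 0 for St3gal5 and Ugt8a.

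Ugcg, glucosylceramide synthase, commits ceramide to most glycolipids and lies on mm10 chromosome 4 from 59189257 to 59222833. It was at 49.0 FPKM (male) and 45.4 FPKM (female) for wild-type mice, 38.3 and 32.2 for St6galnac6-/-, 37.2 and 39.8 for B3galt5D116A, and 42.9 and 38.0 for B3gnt7-/-. Both wild-type libraries were above all 6 mutant libraries, a pattern that 8.32% of all tested genes had and that St8sia5 shared. None of the 8 genes had both wild-type libraries below all 6 mutant ones, as 7.23% of tested genes did. The mean in St6galnac6-/- was 35.3 ± 4.33 FPKM against 47.2 ± 2.53 FPKM in wild-type (n = 2 each), 74.8% of it. The log2 difference was -0.41 (SE 0.12, limma adjusted p = 0.395) in St6galnac6-/-, with a 95% interval of -0.70 to -0.13. It was -0.29 (95% interval -0.57 to 0.00) in B3galt5D116A, -0.42 without the female library of that genotype and -0.15 without the male one, and -0.22 (95% interval -0.51 to 0.07) in B3gnt7-/-. Ugcg varied little beside other members, with its highest library 1.52 times its lowest.

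St8sia5 encodes an alpha-2,8-sialyltransferase that adds further sialic acids to gangliosides and is known mainly from brain. Its gene lies on chromosome 18. Its level was 1.89 FPKM in the male and 5.61 FPKM in the female wild-type library. It was at 0.0947 and 0.0424 FPKM for St6galnac6-/- (male, then female), 1.20 and 0.735 for B3galt5D116A, and 0.890 and 0.538 for B3gnt7-/-. The 4 genotypes thus took 3 separate ranges, with wild-type highest, St6galnac6-/- lowest and the other mutants between them. The share of all tested genes with that order was not counted, so the order cannot be called particular to St8sia5. In FPKM the wild-type libraries differed from each other by more than any pair of mutant libraries did. Relative to wild-type of their own sex, St6galnac6-/- was at 5.02% in males and 0.755% in females, B3galt5D116A at 63.5% and 13.1%, and B3gnt7-/- at 47.2% and 9.59%. The St6galnac6-/- values were near the floor, close to those of St8sia1 (0.0187 to 0.0864 FPKM), so their percentages are imprecise. Each percentage for females rests on 1 wild-type library, at 5.61 FPKM. The log2 difference was -2.03 (SE 0.38, limma adjusted p = 0.183) in St6galnac6-/-, -1.16 (adjusted p = 0.384) in B3galt5D116A and -1.36 (adjusted p = 0.506) in B3gnt7-/-. Without the wild-type male library it was -2.75, -1.88 and -2.07, and without the wild-type female library St8sia5 fell under the filter and was not tested. With a pseudocount of 0.1 the St6galnac6-/- difference was -4.34 (adjusted p = 0.0946). The difference did not pass in any alternative that tested the gene.

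Markers of other cells were set beside St8sia5. The 5 markers of enteric glia and neurons summed to 0.286 to 0.332 FPKM in wild-type and 0.288 to 0.506 FPKM in the 6 mutant libraries, with Sox10 listed at 0 in all 8. S100b, 1 of the 5, had 0.0708 and 0.134 FPKM in wild-type against 0 to 0.0601 FPKM in the mutants. The 6 enteroendocrine markers summed to 77.5 and 135 FPKM in wild-type and 124 to 254 FPKM in the mutants, and the 6 goblet cell markers to 5180 and 5343 FPKM against 7194.5 to 9111 FPKM. The 6 colonocyte markers summed to 13804 and 14632 FPKM in wild-type and 9710 to 22172 FPKM in the mutants. The enteroendocrine sums overlapped, though Insl5 and Pyy were lower in both wild-type libraries than in all 6 mutant libraries. Chga, Chgb, Gcg and Neurod1 overlapped. The goblet sum was lower in both wild-type libraries, with Clca1, Fcgbp and Spink4 lower in both than in all 6 mutant libraries, while the other 3 of the 6, Muc2, Tff3 and Agr2, overlapped. The colonocyte sums overlapped, though Guca2a, 1 of the 6, was higher in both wild-type libraries (5067 and 4481 FPKM) than in the mutants (3183 to 4175 FPKM). In bulk RNA fewer cells of a type and less RNA per cell cannot be told apart, and the part of cell composition in the St8sia5 difference was not tested. The genes with the profile nearest to that of St8sia5 over the 8 libraries, by the root-mean-square difference of centred log2 values, were the acute phase gene Saa1 (0.41), the transglutaminase Tgm3 (0.44) and the nuclear protein Csrnp1 (0.45). Saa1 had 851 and 999 FPKM in wild-type against 417 to 600 FPKM in the mutants.

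St3gal5 makes GM3, the first ganglioside of the main series, from lactosylceramide, and lies on chromosome 6 from 72097592 to 72154571. Ugt8a makes galactosylceramide and lies on chromosome 3 from 125865271 to 125938619. The 250 bases before the annotated start of each, from RefSeq on GRCm38.p6, are shown because these genes of different branches had nearly the same order of libraries, with that of B3gnt5 for contrast. Capitals mark the GC box GGGCGG and the CCAAT box on either strand. The St3gal5 window is chr6:72097358-72097607 on the plus strand, the Ugt8a window chr3:125938653-125938902 on the minus strand and the B3gnt5 window chr16:19759984-19760233 on the plus strand, each written 5′ to 3′ on its own strand.
St3gal5: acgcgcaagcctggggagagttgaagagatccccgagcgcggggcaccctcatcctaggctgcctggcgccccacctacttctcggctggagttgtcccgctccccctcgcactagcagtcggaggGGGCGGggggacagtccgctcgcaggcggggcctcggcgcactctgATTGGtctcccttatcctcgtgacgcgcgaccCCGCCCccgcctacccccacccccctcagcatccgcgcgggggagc
Ugt8a: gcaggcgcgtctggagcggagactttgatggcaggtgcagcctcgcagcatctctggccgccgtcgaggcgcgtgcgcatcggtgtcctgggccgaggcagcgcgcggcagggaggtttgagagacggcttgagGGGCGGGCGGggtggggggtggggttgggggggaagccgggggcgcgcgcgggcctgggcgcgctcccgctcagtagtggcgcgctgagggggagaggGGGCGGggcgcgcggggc
B3gnt5: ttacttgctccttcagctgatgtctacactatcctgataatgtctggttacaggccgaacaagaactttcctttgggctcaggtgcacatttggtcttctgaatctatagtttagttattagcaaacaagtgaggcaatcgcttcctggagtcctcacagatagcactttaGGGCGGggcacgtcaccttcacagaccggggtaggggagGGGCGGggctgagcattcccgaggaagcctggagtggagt

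All 3 windows hold the GC box, with 2 matches before St3gal5, 3 before Ugt8a, of which 2 overlap, and 2 before B3gnt5. Of 32851 windows of the same length, 32.7% held at least 1 match. A CCAAT box was found before St3gal5 alone of the 3, and in 33.85% of all windows. TATAAA (12.4% of all windows) and CACGTG (6.02%), searched on both strands, matched none of the 3. CG dinucleotides numbered 25 before St3gal5, 32 before Ugt8a and 7 before B3gnt5, where the median of all windows was 6. In windows not shown they numbered 43 before Ugcg, 14 before St8sia1, 13 before A4galt and 2 to 12 before Gal3st1. A link between these counts and the order of libraries was not tested. A window off chromosome 18, where St8sia5 lies, was found for 7 of the 9 genes, and the matches describe letters, not binding.

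St3gal5 was at 3.90 FPKM (male) and 3.03 FPKM (female) for wild-type mice, 2.75 and 2.09 for St6galnac6-/-, 1.36 and 12.1 for B3galt5D116A, and 6.31 and 2.11 for B3gnt7-/-. Ugt8a was at 1.85 FPKM (male) and 1.47 FPKM (female) for wild-type mice, 1.30 and 0.738 for St6galnac6-/-, 0.900 and 3.77 for B3galt5D116A, and 2.45 and 1.24 for B3gnt7-/-. The B3galt5D116A female library was highest and the B3gnt7-/- male library next for both genes, and 6 of 8 libraries had the same rank in both. The B3galt5D116A male library was lowest for St3gal5 and next to lowest for Ugt8a, for which the St6galnac6-/- female library was lowest. By spread of log2(FPKM + 1) over the libraries, St3gal5 exceeded 99.0% of tested genes and Ugt8a 96.7%. Ugt8a was the second nearest of all tested genes to St3gal5 by centred profile (0.33), after the arginase Arg2 (0.29) and before the matrix gene Matn2 (0.36). The nearest to Ugt8a were the peroxisomal thiolase Acaa1b (0.12), the lipid transporter Abca12 (0.16) and Prelid2 (0.17). Seen from Ugt8a, St3gal5 had rank 369 at the same 0.33, so the closeness was not mutual by rank.

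Both St6galnac6-/- libraries were below both wild-type libraries for St3gal5 and Ugt8a, as they were for Ugcg and St8sia5, which made 4 of 8 where 23.6% of all tested genes had that order. Both B3galt5D116A libraries were below both wild-type ones for Ugcg and St8sia5 alone (25.3% of all genes), and so were both B3gnt7-/- libraries (18.6%), while 0 of 8 genes were above in B3gnt7-/- (16%). The log2 difference in St6galnac6-/- was -0.39 (SE 0.75, limma adjusted p = 0.920) for St3gal5 and -0.41 (SE 0.44, limma adjusted p = 0.836) for Ugt8a. Both moved with single libraries: St3gal5 was at -0.08 when either the wild-type male or the St6galnac6-/- female library was left out, and Ugt8a at -0.12 without the St6galnac6-/- female library. In B3galt5D116A it was 0.33 (95% interval -1.45 to 2.1) for St3gal5 and 0.18 (95% interval -0.86 to 1.22) for Ugt8a. Without the B3galt5D116A female library these became -1.21 (limma adjusted p = 0.631) and -0.69 (adjusted p = 0.811), and without the male library 1.86 (adjusted p = 0.286) and 1.05 (adjusted p = 0.317). In B3gnt7-/- the log2 difference of St3gal5 was 0.10 (95% interval -1.68 to 1.88). Without the B3gnt7-/- male library it was -0.84, and without the female library 1.04. For Ugt8a it was 0.06, and -0.37 and 0.50 without the same libraries. Car1, a carbonic anhydrase of colonocytes, was also highest in the B3galt5D116A female library, at 16569 FPKM, and next highest in the B3gnt7-/- male library, at 12186 FPKM, against 5241 to 8296 FPKM in the others. The sum of the 6 colonocyte markers, to which Car1 gave the most, was 22172 and 17691 FPKM in those libraries and 9710 to 14632 FPKM in the rest. Krt20, another of the 6, was also highest in those libraries, at 735 and 687 FPKM against 432 to 586 FPKM. Slc26a3 had 292 and 223 FPKM there against 248 to 378 FPKM. Car4, Aqp8 and Guca2a, like Slc26a3, did not have both of those libraries at the top. The part of the colonocyte markers in the spread of St3gal5 and Ugt8a was not tested.

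**Figure D3:**
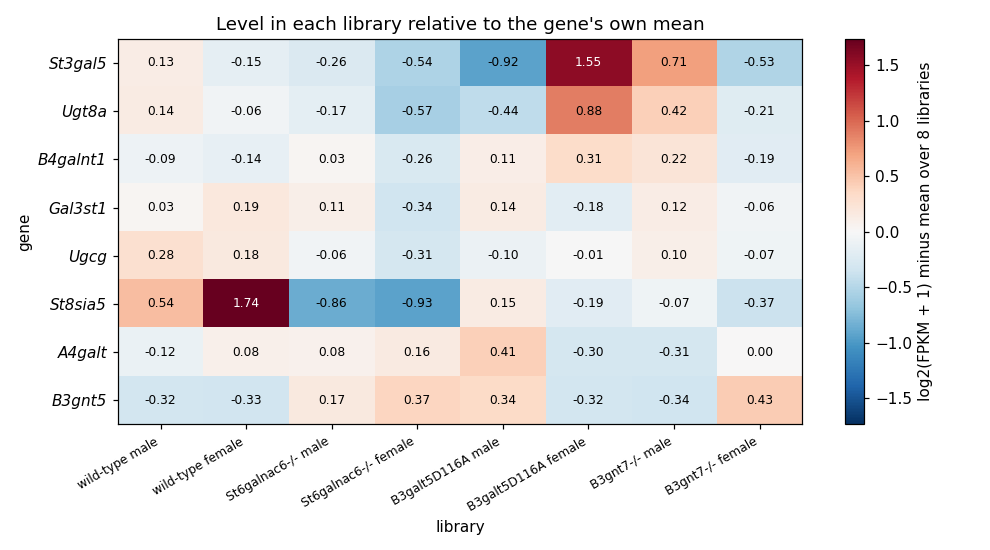
Level of the 8 tested genes (rows) in each library (columns) as log2(FPKM + 1) minus the gene's own mean over the 8 libraries, printed in each cell and coloured from blue (below the mean) to red (above). St3gal5 and Ugt8a are highest in the B3galt5D116A female library (1.55 and 0.88) and A4galt and B3gnt5 are below their means there (-0.30 and -0.32).

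B4galnt1 (chromosome 10 from 127165225 to 127172330) was at 75.5 FPKM (male) and 72.9 FPKM (female) for wild-type mice, 82.4 and 67.0 for St6galnac6-/-, 87.1 and 100.1 for B3galt5D116A, and 94.1 and 70.1 for B3gnt7-/-. Both B3galt5D116A libraries were above both wild-type libraries, as were 26% of all tested genes, and the other mutants straddled wild-type. The means were 93.6 ± 9.15 FPKM in B3galt5D116A and 74.2 ± 1.85 FPKM in wild-type (n = 2 each), a log2 difference of 0.33 (SE 0.16, limma adjusted p = 0.467). Without the B3galt5D116A female library that difference was 0.10, and without the male library 0.55. In B3gnt7-/- it was 0.13, and -0.05 without the male library. In St6galnac6-/- the difference was 0.00, with a 95% interval of -0.38 to 0.39. Slc26a10, on the opposite strand over part of the B4galnt1 gene, was at 0.103 to 0.422 FPKM.

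St8sia1, which makes the b-series ganglioside GD3 (chromosome 6 from 142821545 to 142964452), was near 0 throughout. It was at 0.0352 FPKM (male) and 0.0335 FPKM (female) for wild-type mice, 0.0580 and 0.0864 for St6galnac6-/-, 0.0242 and 0.0187 for B3galt5D116A, and 0.0251 and 0.0598 for B3gnt7-/-. At this depth no difference between genotypes could be read from such values. Among the sialyltransferases here, St3gal5 was above St8sia1 in 8 of 8 libraries, with no overlap of their ranges. The ratio, 24.1 to 651, is imprecise because St8sia1 was near the floor. Its highest value came from the B3galt5D116A female library, where St3gal5 was highest and St8sia1 lowest.

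B3gnt5 adds the N-acetylglucosamine that starts the lacto and neolacto series, on chains that B3galt5 can extend (chromosome 16 from 19760208 to 19772753). It was at 13.3 FPKM (male) and 13.2 FPKM (female) for wild-type mice, 19.1 and 22.1 for St6galnac6-/-, 21.5 and 13.3 for B3galt5D116A, and 13.1 and 23.1 for B3gnt7-/-. The libraries fell into a low set of 4, both wild-type ones with the B3galt5D116A female and B3gnt7-/- male, and a higher set of 4, with no value between 13.3 and 19.1 FPKM. The low set of 4 were the lowest libraries for 3.03% of all tested genes. They were the highest for 3.84%, with Ugcg, St3gal5 and Ugt8a among those genes. The mean in St6galnac6-/- was 20.6 ± 2.11 FPKM against 13.2 ± 0.0491 FPKM in wild-type (n = 2 each), and both its libraries were above wild-type, as were those of 24.1% of tested genes. The log2 difference was 0.60 (SE 0.29, limma adjusted p = 0.600) in St6galnac6-/-. It was 0.34 (95% interval -0.35 to 1.02) in B3galt5D116A, -0.15 without the male library of that genotype and 0.82 without the female one. In B3gnt7-/- it was 0.37 (95% interval -0.32 to 1.06), -0.10 without the female library and 0.84 without the male one.

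A4galt makes the globo-series lipid Gb3, the receptor of Shiga toxin (chromosome 15 from 83226722 to 83251774). Its level was 4.70 FPKM (male) and 5.55 FPKM (female) for wild-type mice, 5.53 and 5.91 for St6galnac6-/-, 7.22 and 4.03 for B3galt5D116A, and 4.01 and 5.2 for B3gnt7-/-. It was highest in the B3galt5D116A male library and lowest in the B3gnt7-/- male and B3galt5D116A female libraries, the ends of the order opposite to those of St3gal5. No mutant was separate from wild-type. The log2 differences were 0.14, 0.07 and -0.13 in St6galnac6-/-, B3galt5D116A and B3gnt7-/-, with 95% intervals that reached from -0.71 to 0.72 in all. Without the B3galt5D116A male library the B3galt5D116A difference was -0.38, and without the female library 0.53. Without the B3gnt7-/- male library the B3gnt7-/- difference was 0.09.

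Gal3st1, the sulfotransferase that turns galactosylceramide into sulfatide (chromosome 11 from 3983636 to 3999326), had the smallest ratio of highest to lowest library of the 9. It was at 29.8 FPKM (male) and 33.5 FPKM (female) for wild-type mice, 31.6 and 22.9 for St6galnac6-/-, 32.2 and 25.6 for B3galt5D116A, and 31.9 and 27.9 for B3gnt7-/-. In each mutant the male library was above and the female library below its wild-type counterpart. These comparisons share the wild-type libraries, and wild-type was the only genotype with the female library higher. The share of all tested genes with this pattern was not counted. The highest library was 1.46 times the lowest. The log2 differences were -0.23, -0.13 and -0.08 in the 3 mutants, and the 95% intervals reached from -0.60 to 0.29. Without the wild-type female library they were 0.01, 0.11 and 0.16, and without the wild-type male library -0.47, -0.37 and -0.32.

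The rule for choosing the genes names genotypes and not sexes, and the sexes were compared over the 4 genotypes. The limma test called 0 of 8 genes, with 0 at an unadjusted p under 0.05, where it called 0.052% of all tested genes and 1.66% were under the unadjusted threshold. Gal3st1 had a log2 difference, female minus male, of -0.20 (SE 0.11, limma adjusted p = 0.99984), with the female library higher in 1 of 4 genotypes. Ugcg was at -0.11 (95% interval -0.31 to 0.10) and B4galnt1 at -0.14 (95% interval -0.41 to 0.13), each higher in the female library in 1 of 4 genotypes. St3gal5 was at 0.17 (95% interval -1.09 to 1.43), and at -0.60 without either B3galt5D116A library. No gene of the 8 was higher in females, or lower, in all 4 genotypes, where 3.26% and 4.15% of tested genes were.

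The rest of the pathway was described from lists by role, with 57 genes in all. Ceramide supply had 12 of 15 genes tested, other glycolipid-building steps 7 of 14, sphingomyelin synthesis 3 of 3, breakdown 15 of 15, and transport and sugar-nucleotide supply 10 of 10. In these 5 lists 0 genes passed the limma test in any mutant or between the sexes, and the count at an unadjusted p under 0.05 was 0 to 2 per list and mutant. Degs2, which makes phytoceramide in gut epithelium, and Fa2h, which hydroxylates the fatty acid of ceramide, had means of 138 and 71.5 FPKM, against 13.0 FPKM for the dihydroceramide desaturase Degs1. The ceramide synthase Cers2 led its family at 47.2 FPKM, while Cers1 and Cers3 stayed at or under 0.193 FPKM and Sptlc3 was listed at 0 in all 8 libraries. The lactosylceramide synthases B4galt5 and B4galt6 were at 10.45 to 15.3 FPKM and 7.02 to 9.13 FPKM. B3galt4, which makes GM1, was at 4.42 to 6.31 FPKM, and St3gal2, which can sialylate GM1, at 0.0890 to 0.267 FPKM. The globo-series enzyme B3galnt1, which would extend Gb3, was at 0 to 0.127 FPKM.

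The median log2 difference of ceramide supply genes was -0.07 in St6galnac6-/-, 0.13 in B3galt5D116A and -0.04 in B3gnt7-/-. The ceramide synthase Cers5 had 27.8 and 27.4 FPKM in wild-type against 18.9 to 25.7 FPKM in the mutants, with its lowest values in St6galnac6-/- (log2 difference -0.50, limma adjusted p = 0.390). Sptssb, a small subunit of serine palmitoyltransferase, was highest in the B3gnt7-/- male library, at 100.1 FPKM, and the B3galt5D116A female library, at 87.8 FPKM, and at 45.4 to 63.5 FPKM in the rest. Other glycolipid-building steps had medians of -0.04, -0.13 and -0.02, with B4galt5 at 15.3 and 14.2 FPKM in wild-type and 10.45 to 13.1 FPKM in the mutants (limma F-test adjusted p = 0.769). St6galnac6, which is known to make alpha-series gangliosides, is in this list and is a targeted gene (F-test adjusted p = 0.425).

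Sphingomyelin synthesis, which also draws on ceramide, had 3 of 3 genes negative in each mutant, with medians of -0.17, -0.24 and -0.20. Of all 11537 tested genes, 5689, 5731 and 6005 were negative, and the 3 mutants share the wild-type libraries. Sgms2 had 12.7 and 13.1 FPKM in wild-type against 8.53 to 12.1 FPKM in the mutants, and Sgms1 had 11.1 and 9.73 FPKM against 8.25 to 9.29 FPKM, both without passing the limma F-test (adjusted p = 0.757 and 0.777). Breakdown genes had medians of -0.03, -0.16 and -0.12. The lysosomal sialidase Neu1 had 57.6 and 51.8 FPKM in wild-type against 38.3 to 47.9 FPKM in the mutants (limma F-test adjusted p = 0.757). The beta-galactosidase Glb1 had 38.3 and 41.4 FPKM in wild-type against 51.5 to 59.97 FPKM in 5 mutant libraries, but 26.1 FPKM in the B3gnt7-/- male library. Transport and sugar-nucleotide supply had medians of 0.01, 0.05 and -0.08, with the glucosylceramide transfer protein Plekha8 at 15.6 to 19.5 FPKM.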

How the data were processed

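The authors deposited 1 table per library with an FPKM value per gene symbol, per the file headers. Libraries were made with a stranded mRNA kit, per the labels' protocols. Cuffdiff 2.2.1, TopHat2 2.1.1, SAMtools 0.1.18 and Bowtie2 2.2.8 are listed, with build mm10, per the submitters' processing notes. Their settings, the annotation, the scaling between libraries and any use of strand are not given in the sources used here. An exact 0 can be a failed estimate, since 2 to 4 of 77 ribosomal protein genes per library were at 0, so such genes are called listed at 0.

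From these values log2(FPKM + 1) was computed for 11537 genes (mean FPKM of 1 or more) and fitted with limma 3.58.1 in R 4.3.3 (eBayes with a trend), with genotype and sex as additive terms over all 8 libraries, which left 3 residual and 4.02 prior degrees of freedom. Tests were two-sided, adjusted by Benjamini-Hochberg over all tested genes at 0.05, and checked on simulated data. With 1 library per genotype and sex, their interaction had no residual to test it. The labels give no replicate numbers or batches. Depth was compared through the most frequent ratio of values under 0.15 FPKM, which 27.7% to 33.9% of the genes used met within 0.01 on the log2 scale. Gene positions are from GENCODE M21 (mm10) and upstream windows from RefSeq (GRCm38.p6).

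The genes, lists and tests were chosen with earlier results of these data known. All 9 genes are named. From each pathway list the text names every gene past the threshold (there was none) and the 2 with the smallest F-test p, of which 1 is not reported here, and the other genes given as levels were chosen after their values were seen. Profiles were compared for the 3 members with the largest spread. Alternatives tried were leaving out each library, dropping the sex term or the filter, median centring, quantile normalization and a pseudocount of 0.1.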

Additional observations from a re-analysis of the deposited data

Results flagged for a closer look

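In B3galt5D116A the male and female libraries moved in opposite directions against wild-type of their own sex for 2 of the 9 genes, by at least 1.5-fold each way. St3gal5 was at 34.9% of wild-type in males and 401% in females, and Ugt8a at 48.5% and 256%. The share of all tested genes that moved this way was not counted, so the pattern cannot be called particular to these genes. The difference between the sexes was not tested, since each combination has 1 library. Dixon's ratio, the gap to the nearest library over the range, was taken among the 4 libraries of each sex in 18 sets, 9 genes in 2 sexes. On log2(FPKM + 1) it was above the 95% critical value in 0 sets, the nearest being St3gal5 in females (0.816). On FPKM it was above it in 2 sets, St3gal5 in females (0.906, the B3galt5D116A library) and St8sia5 in females (0.876, the wild-type library). Each set holds 4 genotypes, and chance alone puts about 1 in 20 sets above the value.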

How the results depend on the processing

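The count of glycolipid enzymes called was 0 in each of the 5 comparisons under every alternative run, with a lowest adjusted p of 0.0788 (St8sia5 in St6galnac6-/-, without the B3gnt7-/- male library). Of 404 alternative values of the 32 log2 differences, 33 had the other sign, in 19 differences, none of them called. The number of all genes called was less steady. With no filter it was 0 in St6galnac6-/-, 1 in B3galt5D116A, 2 in B3gnt7-/- and 1 for any difference among genotypes, where 10, 9, 6 and 10 were called. Quantile normalization gave 5 in St6galnac6-/- and 5 for any difference, and a fit without the sex term 23 in St6galnac6-/- and 16 in B3galt5D116A. With 1 library left out the counts ran from 2 to 65 in St6galnac6-/-, 3 to 15 in B3galt5D116A, 3 to 53 in B3gnt7-/- and 1 to 77 for any difference. The lowest count in each came without the wild-type female library and the highest without the B3gnt7-/- male library. Without the B3gnt7-/- female library the counts were 60, 14, 12 and 30 in that order, and without the wild-type male library 4 in St6galnac6-/- and 5 for any difference. In St6galnac6-/- 6 were called without its male and 5 without its female library, and for any difference 5 without the B3galt5D116A male and 16 without the B3galt5D116A female library. The cause was not tested. Without the wild-type female library St8sia5 was not tested. With 2 libraries per genotype and unknown read counts, the wide intervals of St3gal5 and Ugt8a set the limit on what could be seen.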

Other observations

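The division of libraries seen for B3gnt5 was also present in St6galnac4, a sialyltransferase of the other glycolipid-building steps, named after its values were seen. St6galnac4 was at 7.54 to 9.37 FPKM in both wild-type, the B3galt5D116A female and the B3gnt7-/- male libraries, and at 11.0 to 14.8 FPKM in the other 4, with a log2 difference of 0.43 in St6galnac6-/- (limma adjusted p = 0.726).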
